A study of Mus musculus with 4 samples.

Results

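The miR-15/16/322 family is described here through 7 mature miRNAs of mouse testis: miR-15a-5p, miR-15b-5p, miR-16-5p, miR-195a-5p, miR-497a-5p and both arms of the Mir322 hairpin, miR-322-5p and miR-322-3p. They were chosen by name, as relatives by seed or hairpin, and were 7 of 1002 mature miRNA names with reads of 18 to 25 nt. A miRNA's seed is bases 2 to 8 from its 5' end. All 7 had reads in every library. The seed family in the strict sense has 6 of them, all but miR-322-3p, which is the opposite arm of miR-322-5p and has another seed.

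The libraries held small RNA from total RNA of whole testes of mice aged 16 days. There were 2 libraries with an Hsf5 knockdown, per the labels, and 2 of wild type. In the deposited table these 2 libraries are called KO, while the labels' word, knockdown, is used below. Hsf5 encodes heat shock factor 5, a transcription factor of male germ cells, and the series' title places it in pachytene progression of meiosis and in the silencing of LINE1 retrotransposons. The labels give neither the strain nor how Hsf5 was lowered, and small RNA reads do not measure Hsf5 mRNA, so the knockdown itself was not checked. The labels call the libraries of a group biological replicates and do not say whether animals were pooled.

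MicroRNAs guide Argonaute proteins to messenger RNAs, mainly through pairing of the seed. The miR-15/16 seed family is known as a brake on the cell cycle: its known targets include cyclins D1 and E1 and the checkpoint kinases Chek1 and Wee1, and the miR-15a and miR-16-1 cluster is deleted in many human chronic lymphocytic leukaemias, where it otherwise limits BCL2. In the testis, the Mir322 cluster lies on the X chromosome, much of whose transcription is silenced in pachytene spermatocytes, while many X-linked miRNAs have been reported to escape that silencing.

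The mature sequences show what the family shares and where its members part. They are the RefSeq sequences of the GRCm38.p6 table, and the capitals mark the seed.
mmu-miR-15a-5p: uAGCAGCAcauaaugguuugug
mmu-miR-15b-5p: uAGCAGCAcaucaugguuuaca
mmu-miR-16-5p: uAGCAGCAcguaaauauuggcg
mmu-miR-195a-5p: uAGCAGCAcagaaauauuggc
mmu-miR-497a-5p: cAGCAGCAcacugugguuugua
mmu-miR-322-5p: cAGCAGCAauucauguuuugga
mmu-miR-322-3p: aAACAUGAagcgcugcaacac
The first 6 share the seed AGCAGCA, and 9 of their first 21 bases were the same in all 6. Past the seed they fell into closer pairs, with miR-16-5p and miR-195a-5p equal at 19 of 21 bases and miR-15a-5p and miR-15b-5p at 18 of 21. The least alike pairs, miR-16-5p with miR-497a-5p and miR-195a-5p with miR-322-5p, were equal at 11 of 21. RefSeq lists 4 other mouse miRNAs with this seed, miR-195b, miR-6342, miR-6353 and miR-6419, and none had a read of 18 to 25 nt under its name in any library.

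The members came from 4 clusters (coordinates of GRCm39, annotation of GENCODE M39). Mir15a (chr14:61869476-61869559) and Mir16-1 (chr14:61869329-61869421) lie 54 bases apart on the minus strand within the long noncoding RNA gene Dleu2, Mir15a in an exon and Mir16-1 in an intron. Mir15b (chr3:68917105-68917168) and Mir16-2 (chr3:68917235-68917329) lie 66 bases apart on the plus strand in an intron of Smc4, which encodes a condensin subunit. Mir497 (chr11:70125543-70125626) and Mir195a (chr11:70125868-70125961) lie 241 bases apart on the plus strand outside any other gene on that strand, and Mir497b is annotated opposite Mir497. Mir322 (chrX:52143132-52143226, minus strand) lies in an exon of the long noncoding RNA gene Mir503hg and is followed after 200 bases by Mir503. The mature miR-16-5p sequence has 2 places in the genome, in Mir16-1 and Mir16-2, so its reads could not be divided between chromosomes 14 and 3. The other 6 have 1 place each.

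The libraries held 9619666 and 10900306 counted reads in knockdown replicates 1 and 2, against 11117460 and 9260452 in wild-type replicates 1 and 2. Reads of 18 to 25 nt with a miRNA name numbered 2144426 and 2053784 in the knockdown, against 2231087 and 1537719 in the wild type. Levels are given in CPM, counts per 1000000 of these miRNA reads after TMM scaling, which corrects for libraries in which a few miRNAs take up much of the reads. The scaling factor was 0.7117 in knockdown replicate 2 and lay between 1.102 and 1.135 in the other 3 libraries, so knockdown replicate 2 stood apart. Marker miRNAs of testis were present in every library: miR-34c-5p, abundant in spermatocytes, had 4764 and 8855 CPM in the knockdown against 3769 and 6166 CPM in the wild type, and miR-202-5p, a Sertoli cell miRNA, had 2195 and 1399 CPM against 2518 and 2112 CPM.

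No member was called changed between Hsf5 knockdown and wild type. By edgeR's quasi-likelihood test, adjusted after Benjamini and Hochberg over the 936 miRNA names tested, 0.0% were called at an adjusted p under 0.05, and 1.5% (14 names) had an unadjusted p under 0.05, none of them a member. DESeq2 also called 0 of 936, with 16 at an unadjusted p under 0.05. Of the 7 members, 4 had a positive and 3 a negative log2 difference (knockdown minus wild type), with a median of 0.01, while over all 936 names 471 were positive and 465 negative, with a median of 0.01. The fitted biological coefficient of variation was 0.603, and at 2 libraries against 2 the standard errors of the members' log2 differences ran from 0.31 to 0.55. The coefficient was fitted on counts by name, so a sequence named differently between libraries also adds to it. How much of it was biological was not tested. A p that misses the threshold at this spread does not show that levels were equal.

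Levels of the members by name ran from 6.92 to 1860 CPM over the 4 libraries. miR-322-3p was the most abundant, rank 63 of 650 mature miRNAs by mean level. miR-16-5p (rank 106) and miR-15b-5p (rank 107) followed and overlapped with each other over the libraries. miR-322-5p (rank 156) was below both without overlap. Then came miR-195a-5p (rank 260) and miR-497a-5p (rank 277), which overlapped, and miR-15a-5p (rank 418) was lowest. The overlap of miR-195a-5p and miR-497a-5p held by name only. Matched by sequence, as described below, miR-195a-5p had 125 to 153 CPM and miR-497a-5p had 41.7 to 68.1 CPM.

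**Figure D1:**
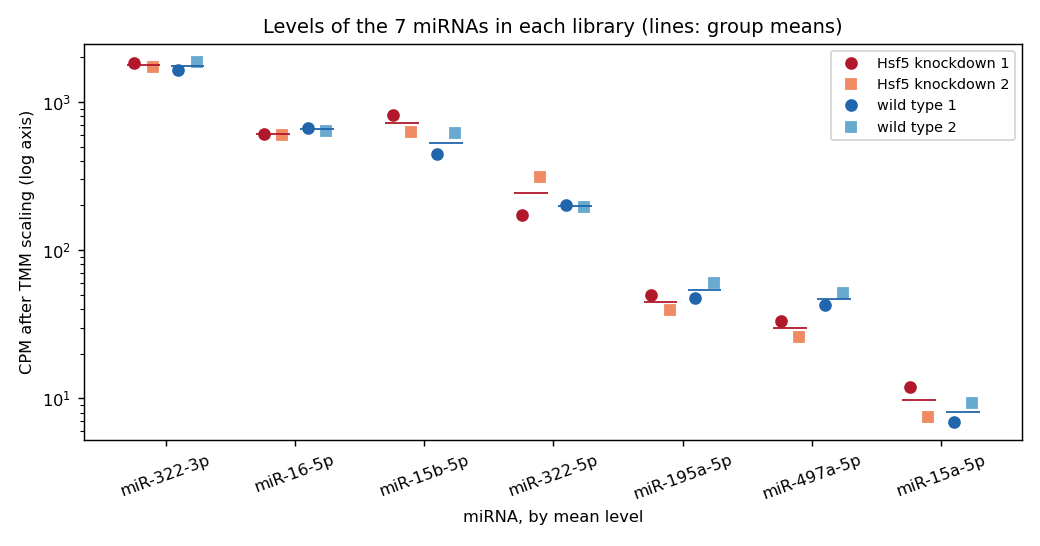
CPM after TMM scaling (log axis) of the 7 miRNAs in each library, with the Hsf5 knockdown libraries left of the wild-type libraries and lines at the group means (n = 2 each). Levels run from 1640 to 1860 CPM for miR-322-3p down to 6.92 to 11.9 CPM for miR-15a-5p.

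miR-15b-5p, from the Smc4 intron on chromosome 3, had 810 and 624 CPM in the knockdown, against 445 and 613 CPM in the wild type. The 2 knockdown values exceeded the 2 wild-type values, though knockdown replicate 2 and wild-type replicate 2 were close. The log2 difference was 0.44 (SE 0.36, adjusted p = 0.992, edgeR). It was the only member with both knockdown libraries above, where 11.3% of all names tested had that arrangement. The arrangement rests on the TMM scaling, where the low factor of knockdown replicate 2 (0.7117) raises its CPM. Before scaling, the reads numbered 1972 and 912 in the knockdown against 1093 and 1058 in the wild type, fewest in knockdown replicate 2.

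miR-15a-5p, its close relative from Dleu2 on chromosome 14, had 11.9 and 7.53 CPM in the knockdown, against 6.92 and 9.26 CPM in the wild type, from 29 and 11 reads against 17 and 16. The groups overlapped (log2 difference 0.28, SE 0.55, adjusted p = 0.992, edgeR). Of the reads of both by name, miR-15b-5p made up 98.6% and 98.8% in the knockdown, against 98.5% and 98.5% in the wild type. Most miR-15 reads were thus of the chromosome 3 copy in all 4 libraries. Matched by sequence, as described below, miR-15b-5p had 2005 and 926 reads in the knockdown against 1112 and 1081 in the wild type. miR-15a-5p had 50 and 16 against 37 and 22. Whether the 2 sequences were captured equally well was not tested.

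miR-16-5p had 609 and 599 CPM in the knockdown, against 671 and 637 CPM in the wild type. Both knockdown libraries were below both wild-type libraries, by little (log2 difference -0.11, SE 0.31, adjusted p = 0.992, edgeR). Its share of the 6 seed-family members' reads was 36.1% and 37.2% in the knockdown against 47.4% and 40.7% in the wild type, a difference of -7.39 percentage points (exact two-sided permutation p = 0.33, the smallest that 2 against 2 libraries can give). Some reads run past the mature end into bases where the hairpins differ. Those that match Mir16-1 numbered 25 and 16 in the knockdown against 34 and 24 in the wild type, and those that match Mir16-2 numbered 0 and 3 against 3 and 1. Of the 99 reads that match Mir16-1, 98 were 1 form, which ends in a T past the T that both hairpins hold. An untemplated T on the shared form would give the same sequence, so an origin in Mir16-1 was not shown. These 99 and 7 reads in all concern reads longer than the mature sequence only and do not tell where the rest came from.

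The chromosome 11 pair was less abundant. miR-195a-5p, studied in mice as a brake on the division of heart muscle cells after birth, had 49.7 and 39.7 CPM in the knockdown, against 47.6 and 59.6 CPM in the wild type, with overlapping groups (log2 difference -0.26, SE 0.44, adjusted p = 0.992, edgeR). miR-497a-5p had 33.3 and 26.0 CPM in the knockdown against 42.7 and 50.9 CPM in the wild type. Both knockdown libraries were below both wild-type libraries, and the log2 difference of -0.66 (SE 0.45, adjusted p = 0.992, edgeR) was the largest of the 7 members in size. Together with miR-16-5p it made 2 of 7 members with both knockdown libraries below, where 17.7% of all names tested were so arranged. Summed by name, the chromosome 11 pair took 4.92% and 4.08% of the seed family's reads in the knockdown against 6.38% and 7.06% in the wild type. Counts by name miss most miR-195a-5p reads, as described below. By name it had 121 and 58 reads in the knockdown against 117 and 103 in the wild type. Matched by sequence, it had 371 and 197 against 309 and 259, so the pair's shares by name are low.

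From the X chromosome, miR-322-5p, the mouse counterpart of human miR-424, had 173 and 313 CPM in the knockdown, against 203 and 196 CPM in the wild type. Knockdown replicate 2 was the highest library and knockdown replicate 1 the lowest, so the groups overlapped (log2 difference 0.29, SE 0.40, adjusted p = 0.992, edgeR). That order is after TMM scaling, where the low factor of knockdown replicate 2 (0.7117) raises its CPM. The reads numbered 422 and 458 in the knockdown against 498 and 339 in the wild type. With scaling by all counted reads the log2 difference was 0.0772. It was -0.085 with scaling by mature miRNA reads, as taken from the authors' scaling factor. With TMM scaling, it was -0.15 with knockdown replicate 2 left out and 0.70 with knockdown replicate 1 left out, with the lone library assumed to vary like the other group. That last comparison, of knockdown replicate 2 alone with the wild type, called 53 of 853 names (6.21%) and no member.

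miR-322-3p had 1820 and 1708 CPM in the knockdown, against 1640 and 1860 CPM in the wild type. The groups overlapped, and the log2 difference of 0.01 (SE 0.35, adjusted p = 0.994, edgeR) was the smallest in size of the 7. Its sign turned under other scalings, to -0.04 with scaling by all counted reads and to -0.25 with scaling by mature miRNA reads, as taken from the authors' factor. That scaling also moved the median of all names to -0.24.

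The Mir322 hairpin thus gave far more 3p than 5p reads. The 5p arm, the one with the family seed, made up 8.70% and 15.5% of the reads of both arms in the knockdown, against 11% and 9.55% in the wild type (exact two-sided permutation p = 1.0). These shares are of reads by name. With reads matched by sequence, as described below, the 5p arm made up 5.87% and 8.60% in the knockdown, against 6.49% and 5.86% in the wild type. Mir15b was the reverse, with the 5p arm at 94.3% and 94.5% of both arms' reads in the knockdown against 88.6% and 93.1% in the wild type.

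As a whole, the 6 seed-family members took 0.192% and 0.115% of all miRNA reads in the knockdown, against 0.156% and 0.176% in the wild type (exact two-sided permutation p = 1.0). After TMM scaling their summed level was 1688 and 1610 CPM in the knockdown against 1416 and 1566 CPM in the wild type. The low share of knockdown replicate 2 therefore went with its low scaling factor. The intervals of counting error (95%, Wilson) on a library's share of the seed family were at most 1.97 points wide on a side for miR-16-5p and 1.65 points for miR-322-5p, narrower than the gap between the knockdown libraries for miR-322-5p (10.3% and 19.5%, against 14.3% and 12.5% in the wild type). Such intervals hold the counting error alone, with each read taken as a separate molecule. Reads copied by PCR are not separate molecules and would make the intervals too narrow.

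**Figure D2:**
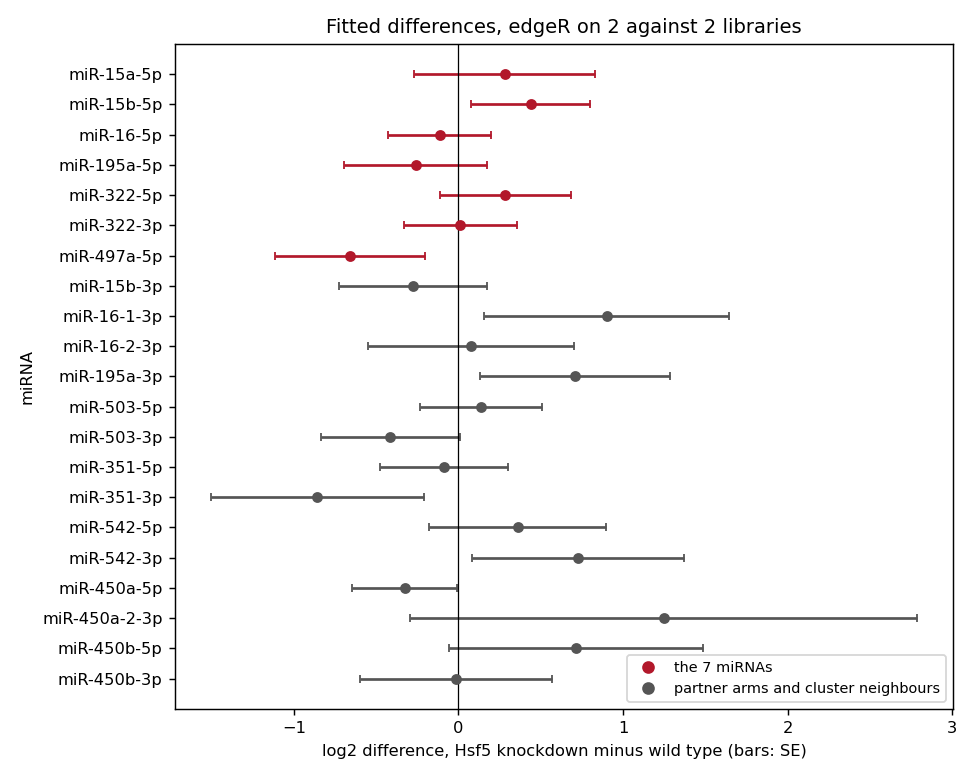
Log2 difference, Hsf5 knockdown minus wild type, with SE bars from the edgeR fit of 2 against 2 libraries, for the 7 miRNAs (red) and for the 14 tested partner arms and cluster neighbours (grey). The members lie between -0.66 for miR-497a-5p and 0.44 for miR-15b-5p, and no adjusted p was under 0.05.

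Mir322 is the first hairpin of an X-linked cluster that goes on with Mir503, Mir351, Mir542, both Mir450 copies and Mir450b within about 6320 bases. miR-503-5p is often counted with the miR-15/16 family because its seed differs from theirs in the last base, and miR-351-5p, the most abundant arm of the cluster, has an unrelated seed.
mmu-miR-503-5p: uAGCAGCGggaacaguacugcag
mmu-miR-351-5p: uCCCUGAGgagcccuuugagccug
miR-351-5p had 5579 and 3916 CPM in the knockdown against 5165 and 4933 CPM in the wild type, and miR-503-5p had 159 and 251 CPM against 171 and 201 CPM. Both overlapped between groups. The 2 arms next to each other on 1 hairpin went apart in knockdown replicate 2: miR-503-3p had 260 and 132 CPM in the knockdown against 253 and 270 CPM in the wild type. By name, miR-503-5p was thus 38.0% and 65.5% of both arms' reads in the knockdown, against 40.4% and 42.7% in the wild type. With reads matched by sequence, as described below, it was 25.7% and 53.6%, against 27.1% and 29.0%.

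Other arms also stood apart in knockdown replicate 2. miR-542-3p had 104 and 360 CPM in the knockdown against 114 and 166 CPM in the wild type. miR-450b-5p had 11.5 and 46.5 CPM against 19.9 and 15.1 CPM, and miR-351-3p had 21.4 and 7.53 CPM against 28.1 and 24.9 CPM. Knockdown replicate 1 was below both wild-type libraries for these 3 arms, so that knockdown replicate 2 lay on the opposite side for miR-542-3p and miR-450b-5p and on the same side for miR-351-3p. With knockdown replicate 2 left out, the log2 difference was -0.37 against 0.73 with it for miR-542-3p, -0.56 against 0.71 for miR-450b-5p, -0.26 against -0.86 for miR-351-3p and 0.05 against -0.41 for miR-503-3p, all from edgeR and none called.

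**Figure D3:**
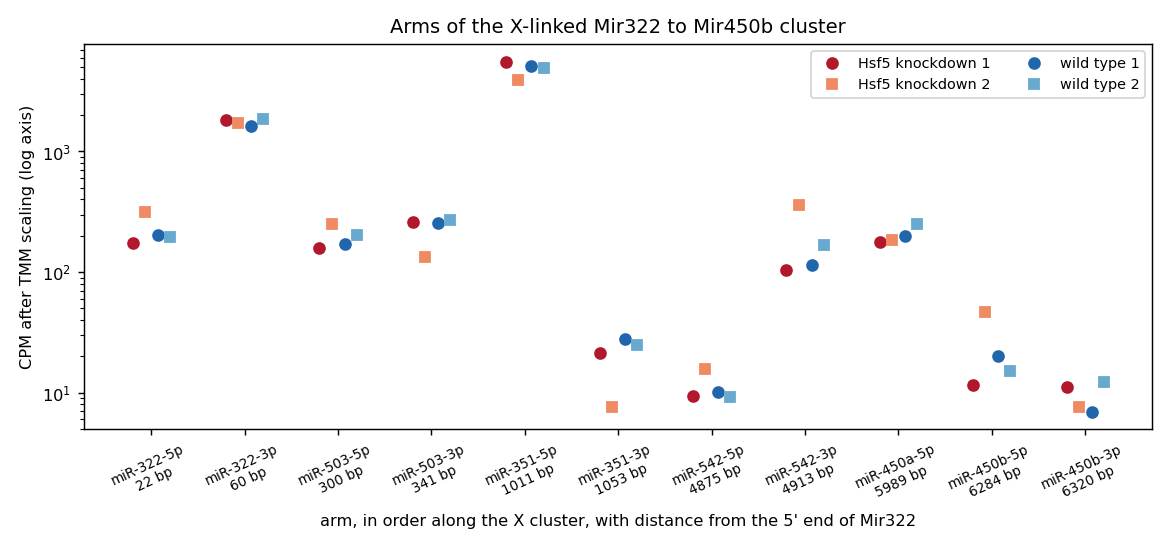
CPM after TMM scaling (log axis) of arms of the X-linked cluster with reads in every library, in genomic order from Mir322, with the knockdown libraries left of the wild-type libraries. On this scale, knockdown replicate 2 is the highest library for miR-322-5p, miR-503-5p, miR-542-5p, miR-542-3p and miR-450b-5p. It is the lowest for miR-503-3p, miR-351-5p and miR-351-3p. How often that library was the extreme over all names was not counted.

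Of the 3p arms of the autosomal clusters, miR-195a-3p and miR-16-1-3p were also highest in knockdown replicate 2. miR-195a-3p had 52.2 and 131 CPM in the knockdown against 67.5 and 44.6 CPM in the wild type, while its partner miR-195a-5p was lowest in knockdown replicate 2. miR-16-1-3p had 11.1 and 40.4 CPM in the knockdown against 15.1 and 12.2 CPM in the wild type. With that library left out, the log2 difference was -0.05 against 0.71 with it for miR-195a-3p, and -0.25 against 0.90 for miR-16-1-3p. miR-15b-3p had 48.5 and 36.3 CPM against 57.4 and 45.2 CPM, and miR-16-2-3p had 7.39 and 4.10 CPM against 6.92 and 4.05 CPM. Of 17 partner arms and neighbours, 16 had reads and 14 were tested. None was called, 8 log2 differences were positive and 6 negative, and their median was 0.11.

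Markers of other cells were read in the same libraries. Summed over its list of 8, miRNAs of blood cells had 260 and 123 CPM in the knockdown against 245 and 262 CPM in the wild type. The 10 of muscle, vessels and Sertoli cells had 40035 and 66282 CPM against 47745 and 46297 CPM. That sum holds miR-199a-3p, with 250 and 1540 CPM in the knockdown against 5943 and 3245 CPM in the wild type. It leaves out miR-199b-3p, with 7403 and 2718 CPM against 0 and 4159 CPM. How reads were divided between these names was not tested, so the sum depends on the naming. The 6 of spermatocytes had 7026 and 10476 CPM against 5288 and 8607 CPM. The 4 of spermatogonia had 2274 and 1636 CPM against 2052 and 2180 CPM. Of these lists, 6, 10, 5 and 4 miRNAs passed the filter on low counts, none of them was called, and no listed marker was at 0 reads in any library.

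Knockdown replicate 2 was the extreme library for all 4 sums, but markers of 1 list did not move together in it. The somatic sum followed miR-143-3p, a smooth muscle miRNA with 25751 and 52197 CPM in the knockdown against 23912 and 28037 CPM in the wild type. Of the 10 somatic markers, 3 were highest and 4 lowest in knockdown replicate 2, and among the lowest were miR-126a-3p of endothelium, with 3274 and 1955 CPM in the knockdown against 3554 and 3786 CPM in the wild type, and miR-202-5p, given above. The spermatocyte sum followed miR-34c-5p, while miR-34b-3p was lowest in that library, with 1647 and 698 CPM in the knockdown against 1132 and 1908 CPM in the wild type. Of the 6 blood markers that passed the filter, 3 were lowest there and 1, the red blood cell miRNA miR-451a, was highest, with 23.0 and 38.3 CPM in the knockdown against 22.8 and 26.6 CPM in the wild type. The part of cell makeup in the values of miR-322-5p and the partner arms in knockdown replicate 2 was not tested. In whole testis, fewer cells of a type and less miRNA per cell cannot be told apart.

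The mean centred log2 profile of the 6 seed-family members over the 4 libraries was nearly flat, at 0.06 and -0.08 in the knockdown against -0.10 and 0.12 in the wild type. Of 259 names with a mean of at least 100 CPM, the 5 nearest to it by Euclidean distance over these 4 libraries were miR-382-5p (0.0704), let-7d-5p (0.077), miR-340-5p (0.122) and reads named for the hairpins mir-871 (0.129) and mir-743b (0.129). Their likeness is a description over 4 libraries and mostly says that all were flat. Within the family the members did not share 1 profile: miR-15b-5p was highest in knockdown replicate 1, miR-322-5p in knockdown replicate 2, and miR-195a-5p and miR-497a-5p in wild-type replicate 2.

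The values so far count reads by the name the authors gave them. For the 7 members, all 129 table lines with a member's name held a sequence lying inside the RefSeq mature sequence, so the names covered shorter but not longer or shifted forms. Reads were therefore also matched by sequence, in any annotation class: a start within 3 bases of the mature start, at least 18 bases equal to the hairpin and at most 3 further bases at the 3' end. This count was chosen after the table had been seen. In it 35.1% of miR-195a-5p, 48.0% of miR-322-3p, 58.4% of miR-15a-5p, 66.5% of miR-497a-5p, 73.5% of miR-16-5p, 82.2% of miR-322-5p and 98.3% of miR-15b-5p reads bore the mature name. The levels of partner arms and neighbours above are also by name. miR-503-3p, for example, had 634 and 193 reads by name in the knockdown and 1343 and 414 by sequence. For partner arms and neighbours, reads whose first 18 bases are shared between arms were left out of the match by sequence. That count can therefore fall short of the count by name. For miR-450b-3p in knockdown replicate 1 there were 27 reads by name and 12 by sequence.

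**Figure D4:**
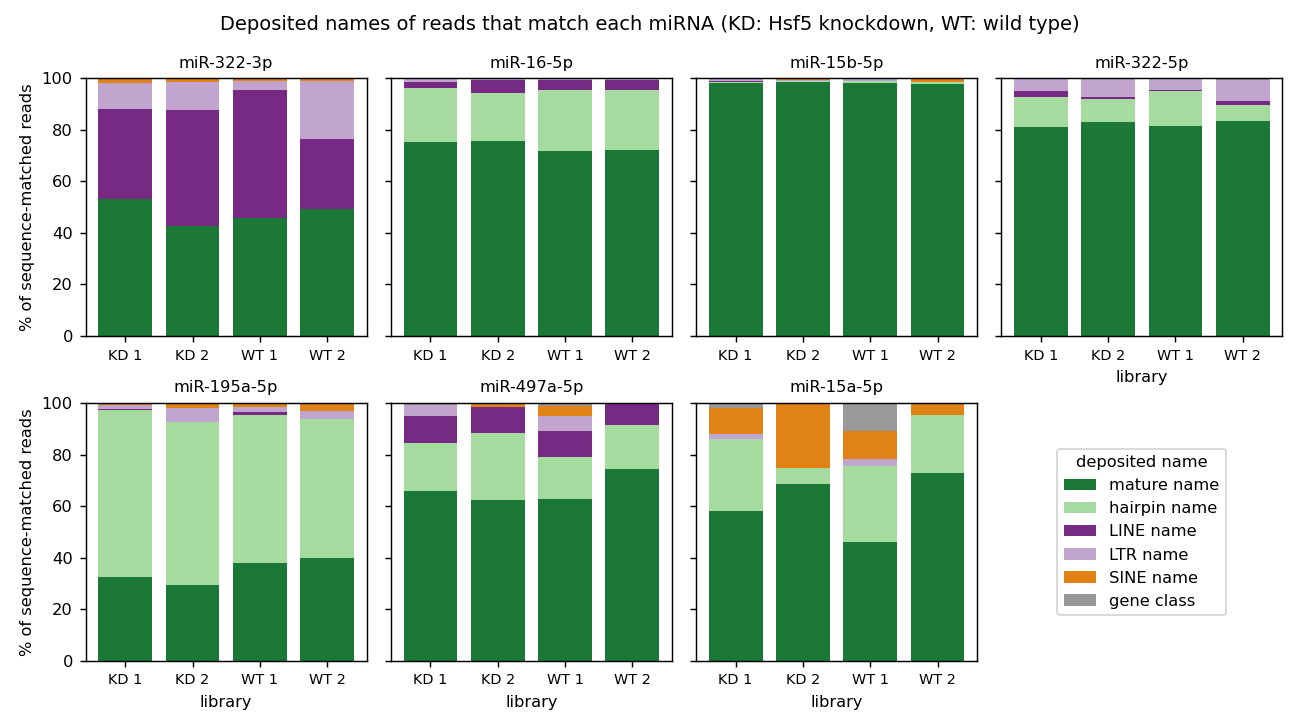
Percentage of sequence-matched reads by the name in the deposited table, for each of the 7 miRNAs and each library, the knockdown (KD) libraries left of the wild-type (WT) libraries. miR-195a-5p reads mostly bear the hairpin name, and 46.8% to 57.2% of miR-322-3p reads bear transposon names.

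For miR-195a-5p the missing reads were under the hairpin's name. Its most common form in these testes was 1 base longer than the RefSeq sequence, with the added base, which the hairpin holds, in capitals, and the next was the RefSeq form.
longer form: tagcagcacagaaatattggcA
RefSeq form: tagcagcacagaaatattggc
The longer form had 232 and 124 reads in the knockdown against 169 and 133 in the wild type, 57.9% of all matched reads, and the RefSeq form had 78 and 46 against 83 and 85 reads. Matched by sequence, the level was 153 and 135 CPM in the knockdown against 125 and 149 CPM in the wild type, which is 3.07 and 3.40 times the level by name in the knockdown and 2.64 and 2.51 times in the wild type. The log2 difference turned from -0.26 to 0.07 (SE 0.34, adjusted p = 0.99, edgeR), the only member whose sign changed with the way of counting.

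miR-16-5p also had a longer form, with 1 added base that both hairpins hold.
longer form: tagcagcacgtaaatattggcgT
It had 382 and 197 reads in the knockdown against 511 and 328 in the wild type, 20.4% of matched reads. The table named it for mir-16-1 in wild-type replicate 1 and for mir-16-2 in the other 3 libraries, though the sequence lies in both hairpins. With all forms counted, miR-16-5p had 810 and 791 CPM in the knockdown against 932 and 880 CPM in the wild type, again with both knockdown libraries below (log2 difference -0.18, SE 0.34, adjusted p = 0.99, edgeR).

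miR-322-3p had no read under its hairpin's name. Of its 29523 matched reads, 14169 bore the mature name, and 15317 (51.9%) bore names of transposons: 11760 of LINE elements, 3201 of LTR elements and 356 of SINE elements. Among these, 98.0% contained the first 18 bases of the mature sequence, which have 1 place in GRCm39, in Mir322, and 79.0% equalled the Mir322 hairpin over their whole length. For the other 6 members, no transposon-named read equalled the hairpin throughout, and each ended in bases that the hairpin does not hold. How many mismatches the authors' mapping allowed is not stated in the labels.

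The transposon-named reads included forms that start upstream of the annotated 5' end. The commonest forms at each start are shown with the bases 2 to 8 of each read in capitals.
start at 0: aAACATGAagcgctgcaaca
start at -1: aAAACATGaagcgctgcaaca
start at -2: cAAAACATgaagcgctgcaaca
Each step upstream moves the seed by 1 base, so the 3 forms carry 3 different seeds. Starts at the annotated base made up 61.5% and 49.3% of miR-322-3p reads in the knockdown, against 53.9% and 58.2% in the wild type (exact two-sided permutation p = 1.0). Starts at -2 made up 25.2% and 37.8% in the knockdown against 33.0% and 28.9% in the wild type, and starts at -1 made up 13.0% and 12.6% against 12.9% and 12.6%. Starts away from the annotated base, which carry another seed, were more than the annotated ones in knockdown replicate 2 and fewer in the other 3 libraries, and the groups overlapped.

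**Figure D5:**
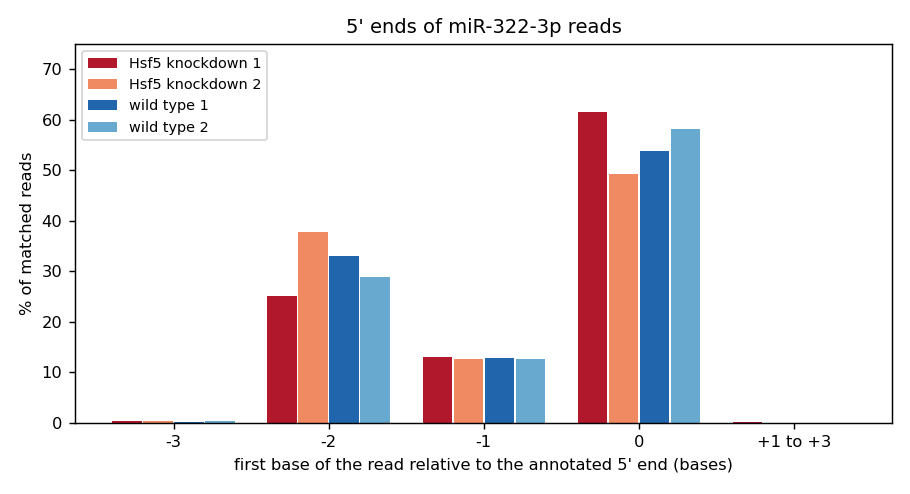
Percentage of sequence-matched miR-322-3p reads by the position of their first base relative to the annotated 5' end, in each library, the knockdown libraries left of the wild-type libraries. Starts at -2 run from 25.2% to 37.8% and starts at 0 from 49.3% to 61.5%, both extremes being the knockdown libraries.

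The other members kept their 5' ends. Over the seed family, 98.4% and 97.8% of matched reads in the knockdown started at the annotated base, against 98.1% and 98.9% in the wild type (exact two-sided permutation p = 0.667). The exceptions were miR-322-5p and miR-497a-5p. For miR-322-5p, 12.9% and 8.55% of reads started 1 base upstream in the knockdown against 12.3% and 6.90% in the wild type. For miR-497a-5p, 5.69% and 13.1% started downstream against 5.39% and 5.93%. These are few reads: its commonest downstream form had 7 and 8 reads in the knockdown against 9 and 7 in the wild type. Its matched reads numbered 123 and 61 against 167 and 118. Reads of the seed family were 21.67 and 21.72 nt long on average in the knockdown, against 21.75 and 21.69 nt in the wild type.

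Untemplated 3' ends overlapped between the groups. They were found on 3.42% and 4.85% of seed-family reads in the knockdown, against 4.54% and 4.60% in the wild type (exact two-sided permutation p = 1.0). On miR-16-5p most began with A, in 3.25% and 5.01% of reads in the knockdown against 4.0% and 4.53% in the wild type. On miR-322-3p, untemplated ends were more frequent, at 11.4% and 9.46% in the knockdown against 11.1% and 11.6% in the wild type, and T came first more often than A. Such ends can be added by cellular enzymes or arise in library preparation and sequencing, and which applied was not tested.

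The name given to a miR-322-3p form differed between libraries. The 22-nt form starting at -2, the third sequence shown above, had 1045 and 877 reads in the knockdown against 1578 and 946 in the wild type. It was named L1MdMus_I in knockdown replicate 1 and wild-type replicate 2, and L1MdF_IV in knockdown replicate 2 and wild-type replicate 1. The 21-nt form with the same start, with 735 and 1060 reads in the knockdown against 1028 and 708 in the wild type, was named L1_Rod and L1MdF_IV in knockdown replicates 1 and 2, and L1MdF_IV and ORR1E in wild-type replicates 1 and 2. Among 80 miR-322-3p sequences found in at least 2 libraries, 28 changed name, and these held 38.3% of the reads. Over all 7 members, it was 42 of 157 sequences with 28.6% of reads.

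Under some transposon names, these reads were a large part of everything of 18 to 25 nt. Of reads named L1MdF_IV, a family of LINE1 elements, they made up 0.0984% (6 of 6095) and 33.5% (1937 of 5789) in the knockdown, against 32.3% (2608 of 8064) and 0.0412% (2 of 4858) in the wild type. Of reads named L1MdMus_I, they made up 22.9% and 1.16% in the knockdown, against 1.89% and 24.2% in the wild type. Of reads named L3b, they made up 50.6% and 45.3%, against 62.4% and 43.8%. Over all LINE-named reads of 18 to 25 nt, the share was 0.605% and 0.996% in the knockdown, against 1.11% and 0.461% in the wild type, and the groups overlapped.

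With every form counted, miR-322-3p had 3431 and 3995 CPM in the knockdown, against 3567 and 3765 CPM in the wild type, 1.88 and 2.34 times the level by name in the knockdown and 2.19 and 2.03 times in the wild type. The groups overlapped, and the log2 difference was 0.02 (SE 0.37, adjusted p = 0.996, edgeR). miR-15b-5p had 825 and 633 CPM against 450 and 624 CPM (log2 difference 0.44), miR-322-5p had 214 and 376 CPM against 248 and 234 CPM (0.29), and miR-497a-5p had 50.6 and 41.7 CPM against 67.6 and 68.1 CPM (-0.55). None of the 7 was called in this count either.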

How the data were processed

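Members and lists were chosen with earlier results of these data known. Per the labels' protocol, the libraries were size-selected for inserts of 18 to 40 bases. The deposited table gives raw counts per sequence, library and annotation, made by the authors. It also gives a ratio, the authors' scaling factor, used only as an alternative. There, 1000000 divided by the factor served as library size. This is called scaling by mature miRNA reads, a reading of the factor that was not checked. The submitters' processing notes name cutadapt and mm39, and the aligner is not given in the sources used here. Each sequence of 18 to 25 nt was counted once per library under its deposited name. Names with at least 1 CPM in 2 libraries were tested with edgeR 4.0.16 (R 4.3.3, TMM factors, robust quasi-likelihood test, Benjamini-Hochberg adjustment at 0.05), without a replicate block. The fit was tested on simulated data, where a pass was required only at a spread below that of these data. Shares were compared by exact permutation over 6 assignments. Named were the members, their partner arms and cluster neighbours, other miRNAs with the seed, and the 5 nearest profiles. A count of 0 allows up to 1.22 to 2.05 CPM, depending on the library. Counts by name differed between libraries of a group beyond sampling noise (chi-square per degree of freedom 585 in the knockdown and 161 in the wild type). Changes of name between libraries enter this measure. The totals of counted reads differed too, so none was a copy. Alternatives were other scalings and filters, DESeq2 1.42.0, other read lengths, 1 name per sequence, a replicate block and leaving out each library.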

Additional observations from a re-analysis of the deposited data

How the results depend on the processing

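No member was called under any alternative. Over all names, 0 were called with the scalings and filters tried, except 2 without a filter, and 0 to 53 with 1 library left out: 0 without wild-type replicate 1, 4 without wild-type replicate 2, 53 without knockdown replicate 1 and 4 without knockdown replicate 2. Of 184 other recomputed values, 169 kept their direction and call, 14 turned their sign and 1 was the count of 2; the causes were not tested.

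Counting each distinct sequence once turned the difference (knockdown minus wild type) of the seed family's share of miRNA reads to 0.0118 points, of miR-16-5p's share of the family to 0.683, of miR-322-5p's to -1.49, of miR-322-5p's share of both arms to -7.32, of untemplated ends to 1.52 and of transposon-named miR-322-3p to 0.7. Log2 differences turned for miR-322-3p (-0.0407) and miR-503-5p (-0.0279) with scaling by all reads, for miR-322-5p (-0.085), miR-322-3p (-0.25) and miR-503-5p (-0.21) with scaling by mature reads, for miR-322-3p without a filter (-0.015), for miR-351-5p with a 10 CPM filter (0.00221) and for miR-195a-5p matched by sequence (0.0669).

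Leaving out 1 library gave -0.0514 to 0.0257 points for the family's share, -10.7 to -4.03 for miR-16-5p's, -3.15 to 6.04 for miR-322-5p's, 0.0614 to 0.319 for miR-15b-5p's share of miR-15, -1.58 to 5.23 for miR-322-5p's share of both arms, -0.83 to -0.0425 for annotated starts, -1.16 to 0.28 for untemplated ends, -6.77 to 5.44 for annotated miR-322-3p starts, -5.62 to 4.85 for its transposon names, and -0.0562 to 0.00436 nt for length. Log2 differences ran from -0.0452 to 0.62 for miR-15a-5p, 0.29 to 0.72 for miR-15b-5p, -0.12 to 0.0261 for miR-16-5p, -0.39 to -0.06 for miR-195a-5p, -0.15 to 0.70 for miR-322-5p, 0.01 to 0.14 for miR-322-3p and -0.80 to -0.44 for miR-497a-5p. Among neighbours they ran from -0.32 to 0.20 for miR-351-5p, -0.17 to 0.48 for miR-503-5p, -0.94 to 0.0462 for miR-503-3p, -0.37 to 1.41 for miR-542-3p, -0.25 to 1.61 for miR-16-1-3p and -0.0534 to 1.27 for miR-195a-3p. With the replicate number as a block, 0 names were called and 9 had an unadjusted p under 0.05; deviations of same-numbered libraries correlated at 0.247, and nothing in the labels pairs them. Giving each sequence 1 name has no value for measures matched by sequence. With 2 libraries a group, the spread between libraries, not depth, limits the abundant members, while miR-15a-5p rests on 11 to 29 reads a library.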
